A study of Mus musculus with 4 samples.

Results

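The Polycomb group genes Ezh1, Ezh2, Eed, Suz12, Bmi1, Ring1, Rnf2, Cbx2 and Cbx7 were examined in sorted mouse skin cells, as 9 of the 12393 genes measured on 4 Affymetrix arrays. They were found by the gene symbol that the array annotation gives each probe set, which returned 23 of the 20380 probe sets with 1 symbol. Each gene is represented by its probe set with the highest mean log2 signal over the 4 arrays, and its other probe sets are given beside it. The study asked which genes distinguish basal cells of the hair follicle bulge, a niche of resting stem cells, from the epidermis as a whole.

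All cells came from back skin of K14-GFP-actin mice, in which the keratin 14 promoter drives GFP-actin in basal keratinocytes, taken at postnatal day 49, a time of follicle rest (telogen). The total group, 2 arrays, held all living GFP-positive cells. The bulge group, 2 arrays, held living GFP-positive cells with high surface α6 integrin and high CD34. Bulge cells were not removed from the total group, so each difference sets them against a mixture in which they are included. The cell type label reads the same for all 4 samples, and the groups follow the titles and the sorted population. Whether the 2 arrays of a group hold different animals is not said in the labels, so every p-value rests on the spread of these samples alone, and that spread may be technical. In bulk RNA, fewer cells of a type and less RNA per cell cannot be told apart.

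Polycomb proteins keep genes silent through chromatin. Polycomb repressive complex 2 (PRC2) methylates lysine 27 of histone H3 through EZH1 or EZH2, with EED reading the mark and SUZ12 holding the complex together. Polycomb repressive complex 1 (PRC1) ubiquitinates histone H2A through RING1 or RNF2, paired with a PCGF protein such as BMI1, and its CBX subunits bind the methylated histone. In the epidermis these complexes are known to restrain differentiation and Merkel cell genes in progenitors and to keep the Cdkn2a locus silent.

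The stretch around the annotated start of Ezh1, Ezh2 and Eed is shown because these are the 3 core PRC2 genes whose groups did not overlap, with opposite directions for the paralogs Ezh1 and Ezh2. The sequences are RefSeq's for GRCm38.p6, read 5′ to 3′ on the gene's strand, from 100 bases before the start to 20 bases from it. All 3 genes lie on the minus strand, at chr11:101226444-101226563 for Ezh1, chr6:47595011-47595130 for Ezh2 and chr7:89980957-89981076 for Eed. Capitals mark matches, on either strand, to CCAAT, the box bound by NF-Y, and to TTGGCGC, a form of the E2F site. A search of both strands for TTTGAA, the core of the cell cycle homology region, marked nothing in these 3 stretches.
Ezh1: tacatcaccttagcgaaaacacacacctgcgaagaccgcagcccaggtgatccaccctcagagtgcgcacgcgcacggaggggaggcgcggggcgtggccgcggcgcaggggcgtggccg
Ezh2: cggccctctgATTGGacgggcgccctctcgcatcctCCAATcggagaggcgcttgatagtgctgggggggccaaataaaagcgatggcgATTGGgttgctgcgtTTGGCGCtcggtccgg
Eed: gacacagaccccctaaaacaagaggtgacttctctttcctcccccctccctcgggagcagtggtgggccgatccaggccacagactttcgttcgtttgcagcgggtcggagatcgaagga

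The Ezh2 stretch held CCAAT 3 times, starting 90, 64 and 11 bases before the start, and TTGGCGC once, beginning at base 5 of the transcript. Among all 32851 windows of 300 bases around gene starts, from 250 bases before to 50 from the start, 37.4% held CCAAT at least once, 3.37% held it 3 times or more, 2.45% held TTGGCGC and 17.9% held TTTGAA. Of the 8 member genes with such a window, CCAAT was also in those of Suz12, Cbx7 and Eed, TTTGAA was in those of Eed, Suz12 and Cbx7, and TTGGCGC was in that of Ezh2 alone. No motif overlapped another in the Ezh2 stretch. These matches describe the letters of the window and are neither sites nor causes.

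No Polycomb member passed the limma test across all genes, in which an adjusted p under 0.05 counts as a call. The same test called 0% of all genes, with 0 higher and 0 lower in the bulge group, and its smallest adjusted p over all genes was 0.0729. An unadjusted p under 0.05 was reached by 1297 genes (10.5%, with 5.18% higher and 5.29% lower) and by 0 of the 9 members. The limma fit with an intensity trend called 134 genes, 1.08% (0.557% higher and 0.524% lower), and again 0 members. Groups did not overlap, with both bulge arrays on 1 side of both total arrays, for 5 of the 9 members, 2 higher (Ezh1 and Bmi1) and 3 lower (Ezh2, Eed and Cbx2). Over all genes, 38.5% had groups that did not overlap, 18.0% higher and 20.5% lower, and over genes with a group mean above background, as 8 of the 9 members are, 42.8% did (20.7% higher and 22.0% lower). With 9 genes and that background, the count is not read as a result about the members. Bmi1 is counted through a probe set that represents it only because of its signal on bulge array 2. The members' median difference, bulge minus total, was 0.15 on the log2 scale against -0.02 for all genes, and the median size of the difference was 0.30 against 0.40. Among genes with a group mean above background, that median size was 0.358 for the 8 members and 0.363 for all such genes.

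**Figure D1:**
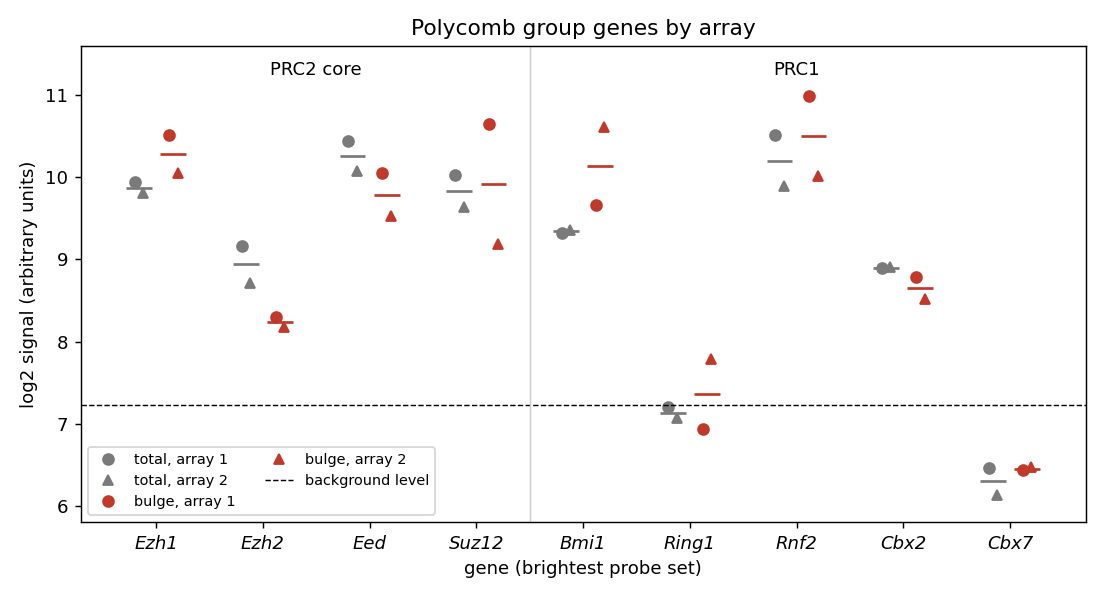
Log2 signal of each Polycomb gene's brightest probe set on the 2 total arrays (grey) and the 2 bulge arrays (red), with bars at the group means and a dashed line at the background level of 7.23. Ezh2, Eed and Cbx2 sit lower on both bulge arrays, and Ezh1 and Bmi1 higher, though the other Bmi1 probe set does not. Cbx7 lies under the background level on every array.

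Ezh2 encodes the PRC2 methyltransferase typical of dividing cells. The Ezh2 probe set, 1416544_at, gave signals of 574.6 and 419.7 for total cells against 315.7 and 288.9 for bulge cells. Both bulge arrays lay below both total arrays. On the log2 scale the levels were 8.94 ± 0.32 (SD, n = 2) and 8.24 ± 0.091 (SD, n = 2). The difference was -0.70 ± 0.39 (SE), a level 1.63-fold lower in the bulge group, with a 95% interval from -1.70 to 0.29 and an adjusted p of 0.673 in the limma fit. Ezh2 had no other probe set. Without each array in turn the difference ranged from -0.93 to -0.47.

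Ezh1 encodes the paralogous methyltransferase, which is known for its presence in resting and differentiated cells. Its representing probe set, 1449023_a_at, gave signals of 982.4 and 895.0 for total cells against 1469 and 1066 for bulge cells. The bulge arrays were both higher, by a narrow margin for array 2. Log2 levels were 9.87 ± 0.095 (SD, n = 2) and 10.29 ± 0.33 (SD, n = 2), a difference of 0.42 ± 0.39 (SE), or 1.34-fold, with a 95% interval from -0.58 to 1.42 and an adjusted p of 0.862 in the limma fit. The other Ezh1 probe set, 1418290_a_at, gave signals of 117.9 and 109.4 against 206.8 and 180.8. Those total signals lie below the background signal of 150.0, while both bulge signals lie above it, so this probe set gives only a bound, with bulge signal at least 1.29-fold higher. Without each array in turn the difference of 1449023_a_at ranged from 0.19 to 0.65.

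The log2 ratio of the paralogs within an array combines the 2 differences above and is given as a description, since their opposite directions were already known. The ratio of Ezh1 to Ezh2 was 0.77 and 1.09 for total cells against 2.22 and 1.88 for bulge cells. The ranges do not overlap, which follows from the values of the separate genes. The ratio shifted by 1.12, or 2.17-fold, from 0.93 ± 0.23 (SD, n = 2) to 2.05 ± 0.24 (SD, n = 2). The two-sided exact permutation p over the 6 splits of the arrays, 0.333, is the smallest that 2 against 2 arrays can give, and nothing is read from it. Probe sets differ in brightness for the same amount of RNA, so only the shift of the ratio is read here and not which paralog was more abundant.

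Eed encodes the subunit that binds methylated lysine 27. Its representing probe set, 1448653_at, gave signals of 1393 and 1082 for total cells against 1058 and 741.1 for bulge cells. Total array 2 and bulge array 1 were almost equal, so the groups were separated only just. The difference was -0.47 ± 0.41 (SE), a level 1.39-fold lower in the bulge group, with a 95% interval from -1.52 to 0.58 and an adjusted p of 0.844 in the limma fit. Without each array in turn it ranged from -0.73 to -0.21. The other Eed probe set was below background on all 4 arrays.

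Suz12 encodes the scaffold of PRC2. Its representing probe set, 1420021_s_at, gave signals of 1047 and 795.7 for total cells against 1608 and 582.6 for bulge cells. The bulge arrays enclosed the total arrays, one above and one below, and their gap of 1.46 on the log2 scale was larger than that of 89.6% of genes above background. The difference was 0.09 ± 0.59 (SE), with a 95% interval from -1.42 to 1.59. Its direction turned to -0.11 without total array 2 and to -0.65 without bulge array 1. Of its 5 other probe sets, 1427253_s_at alone was above background, on 3 arrays, and it gave -0.52 with overlapping groups. The names of both these probe sets end in s_at, the maker's mark for probes that can match transcripts of more than 1 gene. No direction is given for Suz12.

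**Figure D2:**
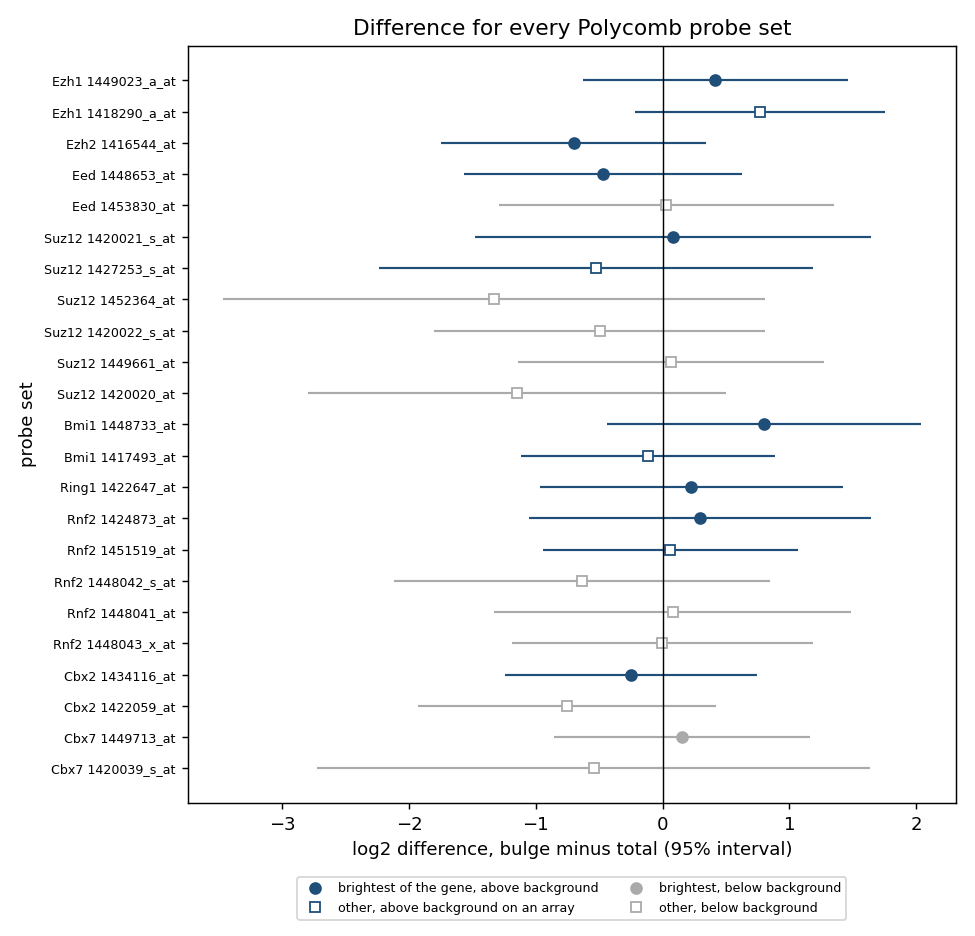
Log2 difference, bulge minus total, for all 23 Polycomb probe sets with 95% intervals from the limma fit over all probe sets with 1 symbol. Filled circles are the probe set that represents a gene, open squares its others, and grey marks those below background on all 4 arrays. Every interval includes 0, and the 2 Bmi1 probe sets lie on opposite sides.

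The 2 probe sets of Bmi1 gave different directions. BMI1 is a PCGF subunit that supports stem cell self-renewal by repressing Cdkn2a. The representing probe set, 1448733_at, gave signals of 642.3 and 654.6 for total cells against 811.5 and 1567 for bulge cells. Both bulge arrays were higher, array 2 by far the more. The difference was 0.80 ± 0.47 (SE), or 1.74-fold, with a 95% interval from -0.39 to 1.99 and an adjusted p of 0.700 in the limma fit, and it was 0.32 without bulge array 2 and 1.27 without bulge array 1. The other probe set, 1417493_at, was also above background on all 4 arrays, with signals of 793.5 and 955.6 against 842.8 and 767.9. These groups overlapped, and the difference was -0.11. The higher signal of Bmi1 in the bulge group held in 1 of its 2 probe sets. That probe set was the brighter of the 2 on bulge array 2 alone (1567 against 767.9). This signal made it represent the gene, so its higher bulge level is not separate from the choice.

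Rnf2 and Ring1 encode the alternative ubiquitin ligases of PRC1. The representing Rnf2 probe set, 1424873_at, gave signals of 1460 and 952.4 for total cells against 2040 and 1032 for bulge cells. Array 1 was the higher one in both groups, and the groups overlapped. The difference was 0.30 ± 0.51 (SE) with a 95% interval from -0.999 to 1.60, and it turned to -0.01 without total array 2 and to -0.19 without bulge array 1. The second Rnf2 probe set above background, 1451519_at, had closer bulge arrays, with signals of 454.6 and 413.3 against 502.0 and 407.6, and gave 0.06 with a 95% interval from -0.94 to 1.07. Ring1 (1422647_at, its sole probe set) lay at the edge of detection, with signals of 147.5 and 133.9 against 122.6 and 221.2, of which only the last was above background. The bulge arrays enclosed the total arrays, and the difference of 0.23 had a 95% interval from -0.92 to 1.37. Without bulge array 2 the direction turned, so no fold or direction is given for Ring1.

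Cbx2 and Cbx7 encode chromodomain subunits that can replace each other in PRC1. The representing Cbx2 probe set, 1434116_at, gave signals of 477.3 and 479.3 for total cells against 440.7 and 366.9 for bulge cells. The total arrays were nearly identical and both bulge arrays were slightly lower. The difference was -0.25 ± 0.37 (SE), or 1.19-fold lower, with a 95% interval from -1.20 to 0.70 and an adjusted p of 0.935 in the limma fit, and it was -0.12 without bulge array 2. The other Cbx2 probe set was below background on all 4 arrays. Cbx7 was below background on all 4 arrays with both of its probe sets, at signals from 70.3 to 88.7 for the brighter one. No fold is given for Cbx7, and its level is known only to lie below 150.0.

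Another CBX gene had the largest positive difference among genes above background in the 5 lists of other Polycomb and trithorax genes. Cbx6, from a list of 25 other PRC1 subunits of which 16 were measured, had signals of 357.6 and 317.5 for total cells against 2457 and 925.0 for bulge cells. Both bulge arrays stood far above the total arrays but differed from each other more than 2-fold. The difference was 2.16 ± 0.57 (SE), or 4.47-fold, with a 95% interval from 0.71 to 3.61. The unadjusted limma p was 0.0117 and the adjusted p 0.248, or 0.143 with an intensity trend, so it did not pass. It had 1 probe set, whose name ends in s_at, the maker's mark for probes that can match transcripts of more than 1 gene. Cbx8, the neighbour of Cbx2 on the chromosome, had signals of 134.0 and 162.6 against 126.6 and 276.4 and a difference of 0.34 with overlapping groups.

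None of the 16 other PRC1 subunits passed in either limma fit. Without overlap of the groups 5 were higher and 3 lower, against 18.0% and 20.5% of all genes, but only 2 and 1 of them had a group mean above background. The list median was 0.17, and from 0.14 to 0.45 without each array in turn. Scmh1, a homolog of the fly PRC1 gene Sex comb on midleg, had signals of 304.8 and 333.7 against 553.0 and 550.1 and a difference of 0.79. Kdm2b, which recruits PRC1 to CpG islands, had a difference of -0.63 with both bulge arrays lower. Usp7 and Yaf2 gave -0.25 and 0.26 with overlapping groups. Pcgf1, an alternative PCGF subunit, was below background on all 4 arrays.

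PRC2 accessory subunits steer the core complex to chromatin. All 8 listed were measured, and none passed in either limma fit. Without overlap 1 was higher and 3 were lower, against 18.0% and 20.5% of all genes. The median difference was 0.00, or from -0.33 to 0.087 without each array in turn. Phf1, a Tudor protein of PRC2, had signals of 140.1 and 146.8 on the total arrays, just below background, and 254.2 and 349.7 on the bulge arrays. That makes it at least 1.99-fold higher, with an unadjusted limma p of 0.0412 and an adjusted p of 0.442. Jarid2, a targeting subunit, had signals of 2116 and 2650 against 1994 and 983.3 and a difference of -0.76, and its second probe set above background gave -1.03, also without overlap. Rbbp7 and Rbbp4, histone-binding subunits shared with other complexes, had differences of -0.35 and 0.13, and Aebp2 had -0.51.

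Of genes that oppose or accompany Polycomb, 0 passed in either limma fit. Of 8 measured genes of the BAP1 complex and other H2A deubiquitinases, 1 was higher and 0 lower without overlap. Their median of 0.05 had no stable sign, ranging from -0.49 to 0.40 without each array in turn. Bap1 itself, the deubiquitinase that removes the PRC1 mark, had a difference of 0.62, while a second probe set, whose groups overlapped, gave 0.17. Asxl1, Usp16 and Ogt gave 0.06, -0.24 and -0.24. Of 12 measured trithorax genes and lysine 27 demethylases, 0 were higher and 2 lower without overlap, with a median of -0.11, or from -0.31 to 0.11 without each array in turn. Kdm6a, a demethylase of the PRC2 mark, had signals of 878.9 and 1019 against 701.9 and 339.9 and a difference of -0.95, but its other probe set gave 0.02. Wdr5 and Dpy30, shared subunits of trithorax methyltransferases, had differences of -0.12 and -0.36. Among 4 measured DNA-binding partners, Yy1 gave 0.04 and Rest 0.41, while Sfmbt1 was below background. Their median of 0.23 turned to -0.22 without total array 2 and to -0.19 without bulge array 1, and was 0.64 without bulge array 2. Over these lists and those of the accessory and other PRC1 subunits, 48 of 70 genes were measured, 37 had a group mean above background and 0 passed in either limma fit. Without overlap, 7 of the 48 were higher and 8 lower, and 4 and 6 of the 37, against the 38.5% and 42.8% of all genes and of genes above background given earlier.

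**Figure D3:**
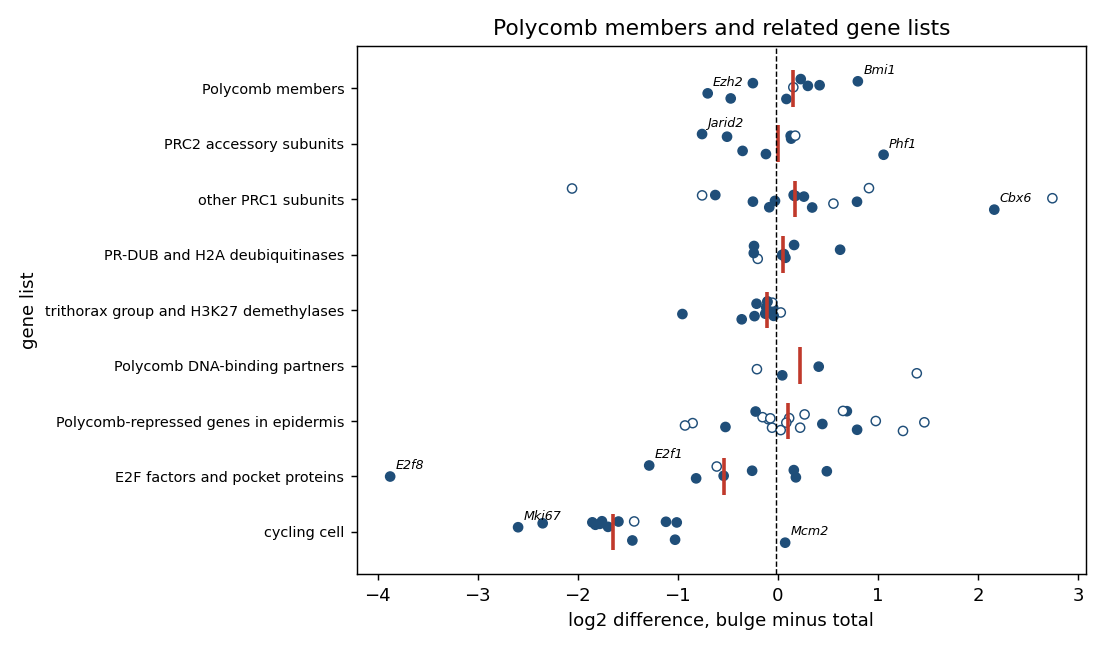
Log2 difference, bulge minus total, of each measured gene in the Polycomb members and related lists; filled points have a group mean above background, red bars are list medians and the dashed line is the median of all genes. Polycomb machinery centres near 0, with Cbx6 at 2.16 the farthest right of its genes above background (Pcgf1, an open point, lies farther), while cycling cell genes centre at -1.65.

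Genes known to be held silent by Polycomb in the epidermis were mostly undetected in both groups. Of 20 measured, 14 were below background on all 4 arrays, as were 4604 of all 12393 genes. Among the 14 were Cdkn2a, the Merkel cell genes Sox2, Isl1, Atoh1 and Krt20, and the simple keratin genes Krt8 and Krt18. Whether Polycomb holds them silent in these cells was not tested. None passed in either limma fit. Without overlap 4 were higher and 0 lower, against 18.0% and 20.5% of all genes, and all 4 were below background on every array. The median was 0.10, and -0.06 without total array 2. Cdkn2b, the neighbour of Cdkn2a and a CDK inhibitor gene, had signals of 345.4 and 335.5 against 164.6 and 340.4 and a difference of -0.52 with overlapping groups. The late differentiation genes Lor, Lce1a1 and Lce1d had differences of 0.69, 0.44 and 0.79, all with overlapping groups. Lor signals were 4782 and 12234 for total cells against 5966 and 25480 for bulge cells, so array 2 was the higher one in both groups.

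Cycling cell genes, among which Ezh2 is often counted, were mostly lower in the bulge group. Of 14 measured, 0 passed in either limma fit and 9 had an unadjusted limma p under 0.05, against 10.5% of all genes. Without overlap 13 were lower and 0 higher, against 20.5% and 18.0% of all genes, and the median was -1.65. Averaged over the list, log2 signal was 9.44 and 9.11 for total cells against 7.37 and 8.12 for bulge cells. Mki67, a marker of proliferating cells, had signals of 2617 and 1746 against 249.1 and 502.0 and a difference of -2.60 ± 0.51 (SE). Mcm2, a helicase subunit, was the member with overlapping groups, at 0.07, although its other probe set, below background on both bulge arrays, was at least 2.16-fold lower. Pcna and Rrm2 had differences of -1.12 and -1.03. The fitted Ezh2 difference of -0.70 was smaller in size than those of 13 of the 14 genes, but 4 genes were below background on both bulge arrays. Of these, Birc5 and Mcm5 were at least 1.16- and 1.15-fold lower, bounds under the 1.63-fold of Ezh2. Tyms was below background on all 4 arrays. With values raised to the background level, the list median was -1.24. The part of cycling cells in the Ezh2 value was not tested.

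E2F factors activate or repress cell cycle genes, and pocket proteins bind them. Their median was -0.54 over 9 measured genes. Without overlap 0 were higher and 4 lower, against 18.0% and 20.5% of all genes. E2f8, a repressor of the family, had signals of 1179 and 1589 for total cells against 71.7 and 121.5 for bulge cells, which are below background. It was at least 9.12-fold lower and passed in the trended limma fit with an adjusted p of 0.0297, but not in the fit without trend, where the adjusted p was 0.0806. E2f1, an activator, had signals of 655.2 and 617.7 against 278.5 and 244.5 and a difference of -1.29 ± 0.37 (SE) with an adjusted limma p of 0.288. The pocket protein genes Rb1 and Rbl2 gave 0.16 and 0.49 with overlapping groups, while Rbl1, also a pocket protein gene, gave -0.82 without overlap. Tfdp1 gave -0.54 and E2f5 -0.26.

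**Figure D4:**
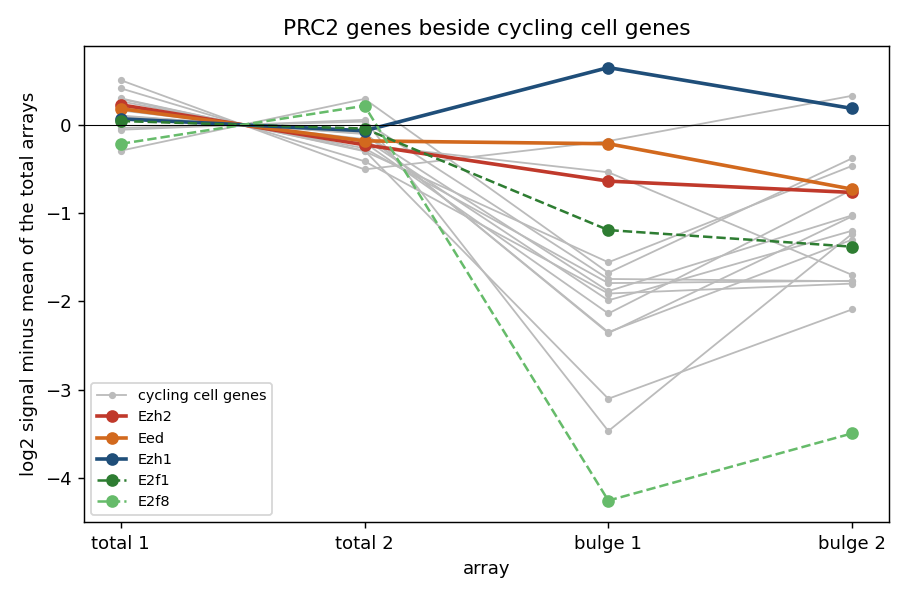
Log2 signal on each array minus the mean of the total arrays, with lines joining the arrays of 1 gene: Ezh2, Eed and Ezh1 in bold, E2f1 and E2f8 dashed, and 14 cycling cell genes in grey. Ezh2 and Eed lie below 0 on both bulge arrays, less far than most cycling cell genes, and Ezh1 lies above 0 on both.

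The sort and its contents were checked by markers. Cd34, part of the gate, had signals of 844.0 and 1144 against 15697 and 14034. Itga6, which encodes the α6 integrin of the gate, had signals of 5642 and 3491 against 3312 and 1693, so its RNA was lower on both bulge arrays (-0.91), opposite to the gate for high α6 protein. Krt14, whose promoter drives the GFP, gave -0.30 with overlapping groups, while its other probe sets gave -0.65 and -2.42 without overlap, and the 3 disagree in size. All 8 bulge markers were higher without overlap (median 2.40), against 18.0% of all genes, with Dkk3 at 4.29. The median was 0.05 for 5 basal keratinocyte genes and -1.22 for 3 infundibulum genes, with Krt79 at -3.46. For 4 suprabasal genes it was -0.61, from Krt1 at -3.31 to Lor at 0.69, and it turned to 0.32 without bulge array 1 and was -1.54 without bulge array 2.

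All 7 T cell markers were lower without overlap, against 20.5% of all genes, and 3 of them had no group mean above background. Their summed signal was 1836 and 3120 for total cells against 233.4 and 424.7 for bulge cells. Ptprc, the pan-leukocyte CD45 gene, was at least 2.88-fold lower. Of 6 Langerhans cell and macrophage markers 5 were lower without overlap, against the same 20.5%, the sum going from 9788 and 11321 to 1021 and 1486. Csf1r, a macrophage growth factor receptor gene, was at -3.65. Of 4 melanocyte genes 4 were lower without overlap (median -1.03), against 20.5% of all genes, with Dct, a pigment enzyme gene, at -1.22. Of these 4, 1 was below background on all 4 arrays. Below background on all 4 arrays were 4 of 5 fibroblast, 3 of 4 endothelial and 4 of 4 Merkel cell genes, with medians of -0.55, -0.14 and -0.46, of which the endothelial and Merkel cell medians turned sign without single arrays. Both groups were sorted as GFP-positive under the keratin 14 promoter, a gate that would leave out cells in which that promoter is off. These other cell types express Polycomb genes too, and their part in the members' differences was not tested.

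The genes most like Ezh1 and Ezh2 were sought among 7248 genes with a group mean above background. The measure was the Euclidean distance between log2 profiles over the 4 arrays, each gene centred on its own mean. Nearest to Ezh1 were Asph, Tmx1 and Pls3, at distances from 0.035 to 0.046 and with differences of 0.39, 0.38 and 0.42. Asph was above the background level of 7.23 on bulge array 1 alone, at 7.51. It was included through its bulge mean, and its 0.39 rests on values near or below background. Nearest to Ezh2 were Pitpnm2, Gar1 and Naa15, at distances from 0.052 to 0.074 and with differences of -0.70, -0.74 and -0.72. With 4 arrays many genes can share a profile, and these are given as a description only.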

How the data were processed

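RNA (200 ng per sample, per the labels' protocols) was amplified with oligo-dT T7 priming, which favours 3′ ends, and hybridised as biotinylated cRNA. The deposited table holds 1 linear intensity per probe set and array, from 0.0546 to 40835, with array medians from 123.6 to 145.0 and a mean of 500.0 after trimming 2% at each end. GCOS, RMA, affy 1.36 and R 2.15.1 appear in the submitters' processing notes; which of them made these values is not given in the sources used here. No label or column gives a scan batch.

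Log2 of the intensity was tested with limma 3.58.1 (R 4.3.3; lmFit, eBayes, group alone, two-sided) over 12393 genes with Benjamini-Hochberg adjustment at 0.05. Gene symbols came from the platform annotation, and 20351 of 20380 were brought up to date through Entrez IDs; 691 probe sets with several symbols, 1555 with none and 64 controls were left out. A background level, log2 7.23 (signal 150.0), was the 95th percentile of 67 olfactory, vomeronasal and taste receptor genes. For a gene below it on all arrays of 1 group only, the fold is a bound ("at least"), using the higher of that level and the measured value on each array. No bound is given for Ring1, whose groups overlapped. Other probe sets come from the same fit over all 20380. Precision is limited by having 2 arrays per group. The fit was also run on simulated data with independent noise on each array, and no result here rests on those runs.

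Members and the 18 lists (141 of 170 entries measured) were chosen with earlier results of these data known. Genes named were all members; from each Polycomb, cycling and E2F list the 3 brightest genes and the largest difference each way above background, and some so chosen from the cell type lists; Cd34, Itga6 and Krt14 as the check of the sort; and the 3 nearest profiles to Ezh1 and Ezh2. Cbx8, Scmh1, Pcgf1, E2f1, Rbl1, Birc5, Mcm5, Tyms, Cdkn2a, Sox2, Krt8 and Krt18 were named after their values were seen. RefSeq tables of GRCm38.p6 gave names, neighbours and promoter sequences; 8 of 9 members had a sequence. Alternatives were array centring, quantile normalization, a pseudocount of 32, other probe set rules, other variance models, a filter on dim genes, a replicate block and each array left out. The trended fits without each array were added after seeing the data.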

Additional observations from a re-analysis of the deposited data

How the results depend on the processing

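Variance models, the dim filter and the block leave a difference as it is, so only scalings, probe set rules and left-out arrays bear on direction. Under those that gave another estimate, direction was kept in 9 of 9 for Ezh1 and Cbx2, 8 of 8 for Bmi1 and 7 of 7 for Ezh2. The groups of these genes did not overlap, so leaving out an array could not turn their direction. These counts therefore partly restate that lack of overlap and are not separate support. No member passed the threshold of 0.05 under any of 18 alternatives (17 for Cbx7; the smallest adjusted limma p was 0.0847, for Bmi1 in the trended fit without bulge replicate 1). Eed turned with the most variable probe set (0.031), Ring1 without bulge replicate 2 (-0.20), and Cbx7 with the mean of probe sets (-0.19), the most variable probe set (-0.54) and without total replicate 2 (-0.0098). Suz12 turned with the mean of probe sets (-0.56), the most variable probe set (-1.33), without total replicate 2 (-0.11) and without bulge replicate 1 (-0.65). Rnf2 turned with the mean (-0.038), the most variable probe set (-0.63), and without the same 2 arrays (-0.0091 and -0.19). Without each array, Suz12 ranged from -0.65 to 0.82, Rnf2 from -0.19 to 0.79, Ring1 from -0.20 to 0.65 and Cbx7 from -0.0098 to 0.32. The turns without an array were the same in the trended fits. The cause was not tested, except that probe set rules bring in probe sets below background. The members' median moved from 0.15 to -0.19 with the mean of probe sets, -0.54 with the most variable one, and ranged from -0.19 to 0.30 without each array. The Ezh1 to Ezh2 shift of 1.12 ranged from 0.95 to 1.29 without each array. Its direction under the 8 alternatives that could move it was fixed, because Ezh1 stayed higher and Ezh2 lower in each.

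Calls over all genes numbered 0 in the limma fit, and 37 with a pseudocount of 32, 134 with an intensity trend, 222 with the filter on dim genes, 917 with the replicate block and a trend, 112 at a threshold of 0.1, and from 0 to 388 in trended fits without 1 array (0 without either total array, 388 without bulge replicate 1 and 350 without bulge replicate 2). The replicate block alone called 0 genes, as did centring, quantile normalization, robust eBayes, both probe set rules and the fits without an array. Labels do not say that array numbers pair samples. Differences between arrays 1 and 2 correlated between the groups at r = 0.58 over 7249 genes above background and at r = 0.29 over all genes. Genes are not independent replicates.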
